A study of Saccharomyces cerevisiae with 8 samples.

Results

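The regions described here are stretches of the yeast genome in which, in both genotypes of the study, relative copy number was high at 30 min after release into S phase compared with 40 min. They were chosen on measured values from 4 libraries, the 30 and 40 min libraries of each genotype. In each genotype the 30 min ratio was divided by the 40 min ratio in every window of 1000 bp, and the quotient, called E here, was smoothed as a rolling median of 21 windows. Windows in the top 15% of E in both genotypes were kept, and are called kept or shared windows. This gave 1088 of 15350 eligible windows (7.09%), out of 24133 windows in the tables. Windows were eligible on chromosomes II, V, VII to XI and XIII to XVI, more than 30 kb from a chromosome end, with a ratio above 0 in all 6 later libraries. Kept windows joined over gaps of up to 2 kb formed 45 zones of 1.5 to 58 kb, with a median of 9.5 kb and a summed length of 575 kb. Windows overlap by 500 bp, neighbouring values of E share windows, and no window or zone is a replicate of a condition.

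Genomic DNA came from budding yeast of the W303 background. Every strain was homozygous for cdc7-4, a temperature-sensitive allele of the kinase gene CDC7, and heterozygous for Mcm6-aid::HIS3, a form of Mcm6 that auxin removes, and for ADH1-TIR::URA, which supplies the auxin receptor. The control, Mcm6-ctrl, also carried Mcm6-ctrl::KAN/+ and the other genotype Mcm6-SuOn::KAN/+. All 4 libraries of a genotype carry a single strain ID. Cells were arrested with nocodazole, given 1 mM IAA (an auxin) to degrade Mcm6-aid, warmed so that Cdc7 was inactive and the cells stopped before S phase, and released by cooling. Samples were taken at 0, 15, 30 and 40 min, with 1 library for each genotype and time, so that no difference below has a replicate check and none was tested. Intervals are 95% exact binomial intervals that cover counting error only.

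As background, replication in budding yeast starts at origins on which a pair of Mcm2-7 helicases has been loaded, and Cdc7 with its partner Dbf4 phosphorylates the helicase to start it. Origins fire in a typical order, so that DNA near early origins is duplicated first and is over-represented among reads until the rest of the genome catches up. A stretch that gains copies early is therefore often high at first and lower relative to the average later, which is the pattern that E measures. Any other cause of a higher 30 min than 40 min value raises E as well.

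The rule set the following values, which are a description. E is a quotient of ratios that were not scaled for depth, so that its level differs between genotypes. In Mcm6-ctrl the median E of eligible windows was 1.0477 and the threshold lay at 1.134, with 1.13384 just inside and 1.13376 just outside. In Mcm6-SuOn the median was 0.721 and the threshold 0.7788, with 0.778824 just inside and 0.778776 just outside. Kept windows had a median E of 1.18 in Mcm6-ctrl and 0.815 in Mcm6-SuOn. They were 47.2% of the Mcm6-ctrl list of 2303 windows and 47.2% of the 2306 windows of Mcm6-SuOn. The 0 min count cancels in E, so that the 0 and 15 min libraries took no part in the ranking. They did take part in eligibility, since windows with a ratio listed at 0 at any later time were left out, 369 of them more than 30 kb from an end.

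At 15 min the kept windows stood above the other eligible windows in both genotypes. Relative copy number is given here as the deposited ratio scaled so that each chromosome has a mean of 1. In Mcm6-ctrl its median over kept windows was 1.1, with quartiles of 1.032 and 1.176, against 0.965 in the other eligible windows. In Mcm6-SuOn it was 1.031, with quartiles of 0.986 and 1.074, against 0.989. The upper quartile of the other windows was 1.031 in Mcm6-ctrl, just below the lower quartile of kept windows, and 1.032 in Mcm6-SuOn, where the quartile ranges overlapped. The difference of medians was 0.135 in Mcm6-ctrl and 0.042 in Mcm6-SuOn. The difference was above 0 on each of the 11 chromosomes in Mcm6-ctrl, from 0.076 on chromosome XIII to 0.244 on chromosome VIII. In Mcm6-SuOn it was above 0 on 10 of 11, the exception being chromosome X at -0.010, and was highest on chromosome XIV at 0.0825.

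**Figure D1:**
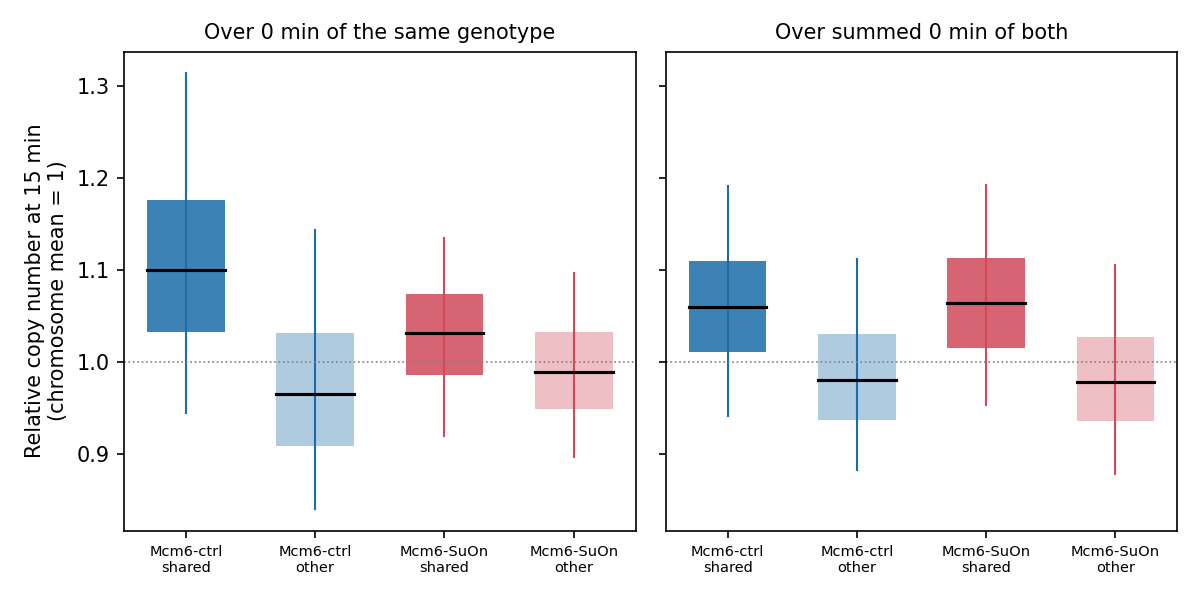
Relative copy number at 15 min (chromosome mean 1) in kept and other eligible windows, for Mcm6-ctrl (blue) and Mcm6-SuOn (red). Bars span the quartiles, black lines are medians and thin lines run from the 5th to the 95th percentile of windows. The left panel divides by the 0 min count of the same genotype, where the kept windows have medians of 1.1 and 1.031, and the right panel by the summed 0 min counts of both, where they have 1.060 and 1.064.

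Kept windows lay at least 5% above the chromosome mean at 15 min, the fold used for counting here, more often than eligible windows as a whole. In the deposited smoothed profile of Mcm6-ctrl, 799 of 1088 kept windows (73.4%) were past this fold, against 20.9% of all eligible windows. In Mcm6-SuOn 317 kept windows (29.1%) were, against 8.81%. Both genotypes were past the fold together in 316 kept windows (29.0%), against 7.23% of all eligible windows. Thus all but 1 of the kept windows past the fold in Mcm6-SuOn were also past it in Mcm6-ctrl. Among all eligible windows, 1110 of the 1353 past it in Mcm6-SuOn were. At or above 1 were 994 kept windows (91.4%) of Mcm6-ctrl, against 37.7% of all eligible windows, and 833 (76.6%) of Mcm6-SuOn, against 40.8%. At least 10% above the mean were 546 (50.2%), against 11%, and 42 (3.86%), against 0.573%. The 94 (8.64%) and 255 (23.4%) that were below 1 compare with 62.3% and 59.2% of eligible windows.

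The read counts behind these ratios show how the kept windows were covered in each library. They made up 7.07% of eligible windows when each read was counted once, and they took fewer reads than that in all 8 libraries. In Mcm6-ctrl they held 5.84%, 6.698%, 6.92% and 6.06% of the eligible reads from the first to the last time. In Mcm6-SuOn they held 6.52%, 6.78%, 6.75% and 5.87%. Each share rests on 607599 to 906086 reads in these windows. The interval at 0 min was 5.82% to 5.85% in Mcm6-ctrl and 6.503% to 6.53% in Mcm6-SuOn. Coverage of the kept windows was thus lowest in Mcm6-ctrl before release and in Mcm6-SuOn at 40 min. The last 2 times of each genotype entered the rule.

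**Figure D2:**
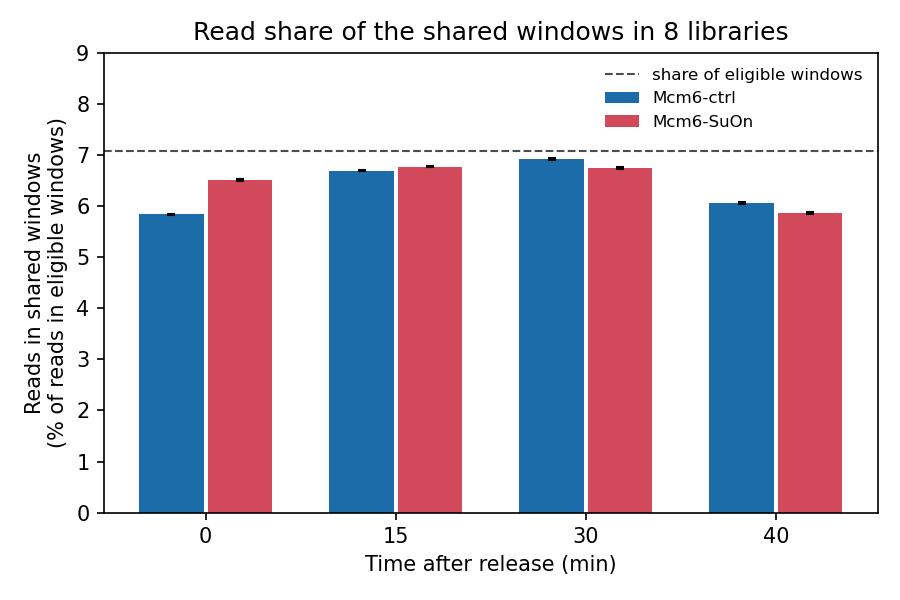
Share of eligible reads (%) that fell in the kept windows in each of the 8 libraries, by time after release, with error bars for 95% exact binomial intervals. The dashed line at 7.07% is the share of eligible windows that they make up. The bars at 0 min differ (5.84% and 6.52%), while those at 15 min lie close together (6.698% and 6.78%).

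In Mcm6-ctrl, the read share of the kept windows at 15 min was 1.147 times that at 0 min, with an interval of 1.143 to 1.151. In Mcm6-SuOn it was 1.0398 times, with an interval of 1.036 to 1.043. Set directly against each other, the genotypes had nearly the same read share at 15 min. The share in Mcm6-SuOn was 1.0117 times that in Mcm6-ctrl at that time, with an interval of 1.008 to 1.015. At 0 min the same ratio was 1.116, with an interval of 1.113 to 1.12. The genotypes thus differed more before release, where Mcm6-SuOn was higher, than at 15 min.

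Divided by the summed 0 min counts of both genotypes, the kept windows stood above the others by similar amounts in both. The difference of medians at 15 min was then 0.0803 in Mcm6-ctrl and 0.0864 in Mcm6-SuOn. It was above 0 on each of the 11 chromosomes in both genotypes, from 0.0387 on chromosome X to 0.139 on chromosome VIII in Mcm6-ctrl. In Mcm6-SuOn it ran from 0.0433 on chromosome X to 0.152 on chromosome VIII. Mcm6-SuOn was thus no longer the lower genotype, and its lower 15 min value in these windows depended on which 0 min library was used. With the same denominator in both genotypes, this order comes from the 15 min counts and is not separate from their read shares. On profiles smoothed from these ratios, 630 kept windows (57.9%) were past the fold in Mcm6-ctrl, against 16.9% of all eligible windows, and 591 (54.3%) in Mcm6-SuOn, against 14.8%. In the deposited smoothed profiles Mcm6-SuOn was lower than Mcm6-ctrl by at least the same fold in 717 kept windows (65.9%), against 16.4% of all eligible windows, and higher in 23 (2.11%), against 32.1%. Over the summed counts 40 kept windows (3.68%) were lower, against 7.28%, and 74 (6.80%) were higher, against 4.36%.

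Low coverage at 0 min moved with membership in both genotypes. In Mcm6-ctrl 1063 of 1088 kept windows (97.7%) had a 0 min count below the median of eligible windows, against 49.9% of eligible windows themselves. In Mcm6-SuOn 915 (84.1%) did, against 49.8%. Of windows in the top 15% of E in Mcm6-SuOn alone, 92.9% did in Mcm6-ctrl and 69.0% in Mcm6-SuOn. For those in the top of Mcm6-ctrl alone it was 55.1% and 58.8%. The median 0 min count of a kept window was 1130 in Mcm6-ctrl, against 1377 in the other eligible windows, and 1470 against 1609 in Mcm6-SuOn. Kept windows had the lower median on all 11 chromosomes in both genotypes. When windows were compared within 5 equal-sized classes of the 0 min count of their own genotype, the difference at 15 min was smaller. In Mcm6-ctrl it was 0.050, 0.040 and 0.044 in the 3 classes of lowest count, which held 831, 209 and 35 kept windows. The next class, with 13 kept windows, gave -0.011, and the class of highest count held none. In Mcm6-SuOn the 5 classes, from low to high, gave 0.023, 0.013, 0.027, 0.039 and 0.028. The 0 min count is also the denominator of the ratio, and the part of coverage in the choice of these windows was not tested.

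Profiles along the chromosome were averaged over the 34 zones with at least 10 kept windows (29 to 34 at each distance). The 0 min count is the denominator of the 15 min ratio, so that the profiles of the ratio and of the count are not independent. The Mcm6-ctrl mean at 15 min was 1.11 at the zone centre, 1.064 at 20 kb to either side, and 1.04 and 0.993 at 40 kb to the left and right. The Mcm6-SuOn mean was 1.024 at the centre and lay between 1.01 and 1.018 at these distances. The 0 min count at the centre stood at 0.818 of the median eligible window in Mcm6-ctrl and 0.925 in Mcm6-SuOn. At 40 kb it was 0.926 and 0.949 in Mcm6-ctrl and 0.987 and 0.975 in Mcm6-SuOn. The dip in 0 min coverage was thus deeper in Mcm6-ctrl. At these distances the 15 min profile of Mcm6-SuOn varied less than that of Mcm6-ctrl, each over its own 0 min counts. Over the summed 0 min counts Mcm6-ctrl had 1.057 at the centre, and 1.015 and 0.998 at 40 kb. Mcm6-SuOn then had 1.065, and 1.032 and 1.010. How much flatter its profile was than that of Mcm6-ctrl thus depended on the 0 min library used.

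**Figure D3:**
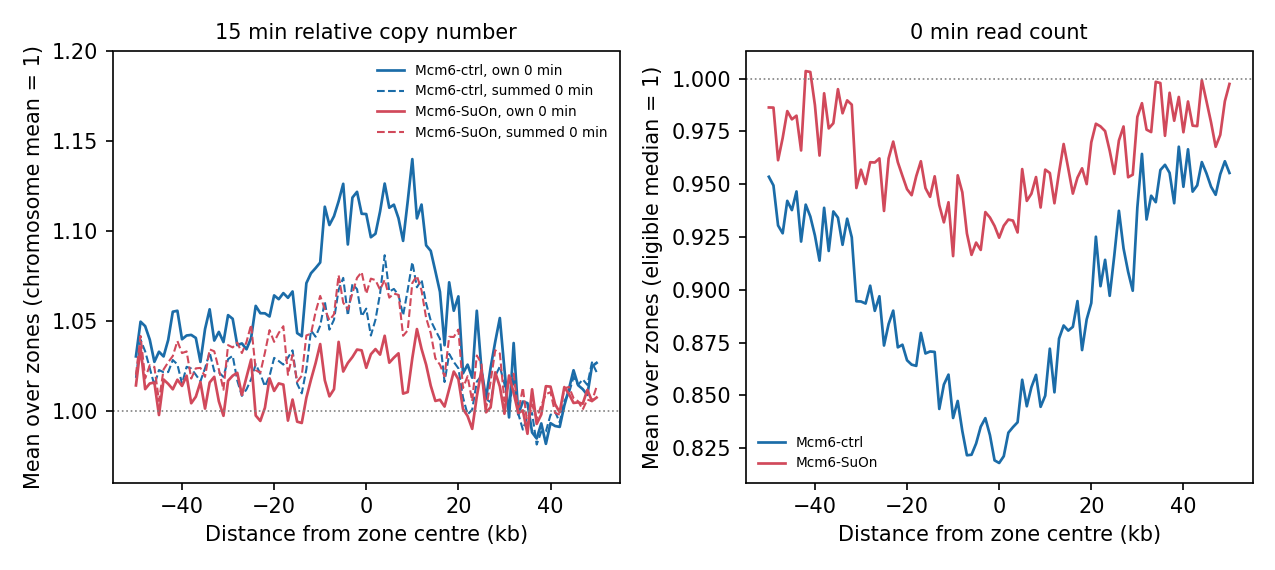
Mean over up to 34 zones with at least 10 kept windows, by distance from the zone centre (kb), for Mcm6-ctrl (blue) and Mcm6-SuOn (red). The left panel shows relative copy number at 15 min over the 0 min counts of the same genotype (solid) or the summed 0 min counts (dashed), and the right panel the 0 min count relative to the median eligible window. The solid lines separate at the centre (1.11 and 1.024), the dashed lines lie close together (1.057 and 1.065), and 0 min counts at the centre are 0.818 and 0.925.

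The name "early zones" held at 15 min for most of the 45 zones but not for all of them. The mean 15 min value of a zone was above 1 in both genotypes in 29 zones, in Mcm6-ctrl alone in 6, in Mcm6-SuOn alone in 4 and in neither in 6. In Mcm6-ctrl zone means ran from 0.916 to 1.32 with a median of 1.081, and in Mcm6-SuOn from 0.934 to 1.107 with a median of 1.0303. Over the summed 0 min counts 34 zones were above 1 in both genotypes and 6 in neither. In the libraries that the rule used, 950 kept windows of Mcm6-ctrl (87.3%) and 760 of Mcm6-SuOn (69.9%) were at or above 1 at 30 min, against 40.4% and 40.7% of all eligible windows. At 40 min 531 (48.8%) were below 1 in Mcm6-ctrl, against 58.7%. By zones, 37 zones were above 1 in Mcm6-ctrl at 30 min and 24 at 40 min. Of the zones of Mcm6-SuOn, 32 were above 1 at 30 min and only 2 at 40 min. The kept windows of Mcm6-SuOn at 40 min had a median of 0.909, below their chromosome means, and 96.3% of them were below 1 in the smoothed profile, against 49.8% of all eligible windows. The zones are therefore named here by the rule, as shared zones.

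**Figure D4:**
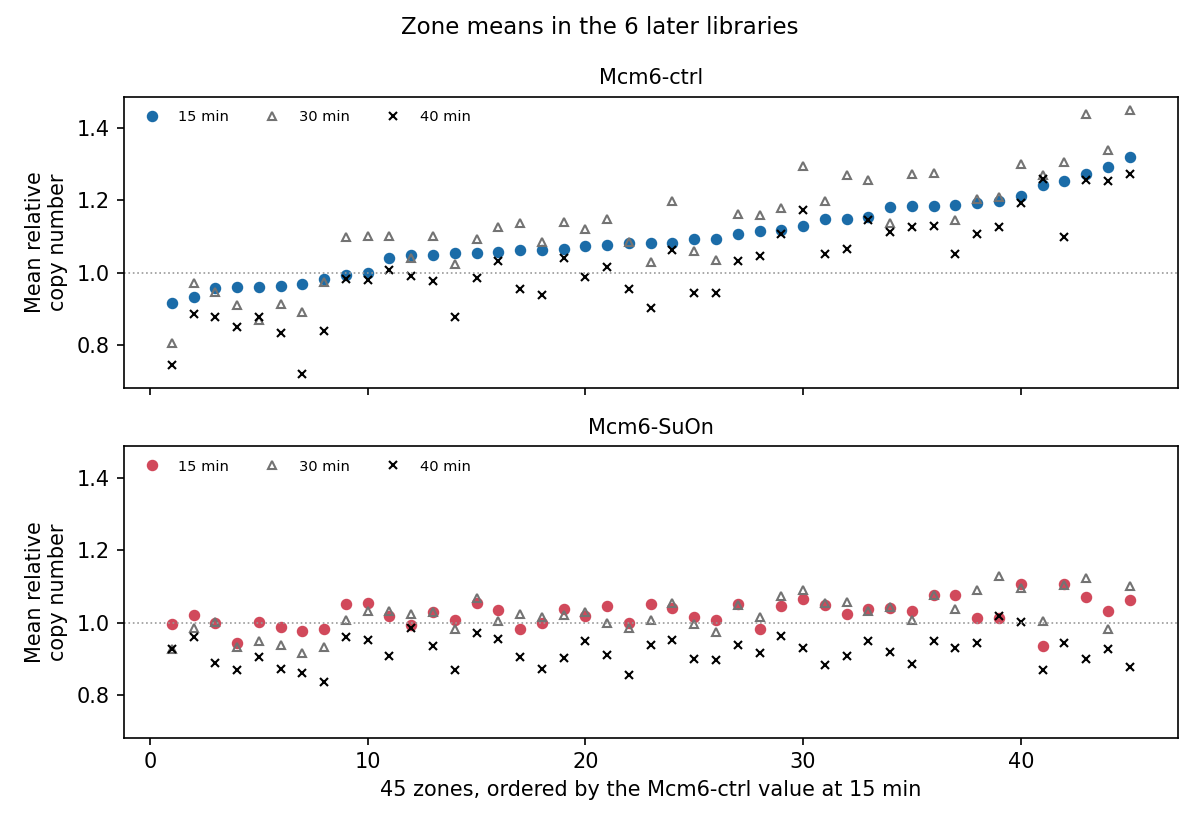
Mean relative copy number (chromosome mean 1) of each of the 45 zones in Mcm6-ctrl (top) and Mcm6-SuOn (bottom) at 15 min (filled circles), 30 min (triangles) and 40 min (crosses), with zones in the order of the Mcm6-ctrl value at 15 min. At 15 min the zones span 0.916 to 1.32 in Mcm6-ctrl and 0.934 to 1.107 in Mcm6-SuOn, and at 40 min 43 of 45 zones of Mcm6-SuOn are at or below 1.

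The zones were spread over all 11 chromosomes, unevenly. Chromosome VII had 10 zones, chromosome IX had 7, chromosome XIV 5, and chromosome XI 1. Kept windows were 14.0% of the eligible windows of chromosome IX and 1.24% of those of chromosome XVI. Zones lay nearer to chromosome ends than eligible windows in general, although the outer 30 kb had been left out. Of kept windows, 31.4% were within 100 kb of an end, against 18.1% of all eligible windows. The 16 zones within 100 kb of an end had a median 15 min value of 1.18 in Mcm6-ctrl and 1.043 in Mcm6-SuOn, and the other 29 zones 1.061 and 1.0175. An annotation or genome of the build sacCer2, which the coordinates use, was not used here, so that origins, centromeres and genes were not placed against the zones.

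The 10 longest zones held 579 kept windows (53.2%). The longest, on chromosome II at 626501 to 684500, had relative copy numbers of 1.092, 1.060 and 0.943 at the 3 later times, 15, 30 and 40 min, in Mcm6-ctrl. Mcm6-SuOn had 1.015, 0.997 and 0.898. It was thus highest at 15 min in both genotypes. Counted as reads, it held 1089 reads per kb before release and 1261 at 15 min in Mcm6-ctrl, and 1424 and 1097 in Mcm6-SuOn, whose 15 min library was the shallowest of the 8. As a share of eligible reads, this was 1.139 times the 0 min share in Mcm6-ctrl (interval 1.127 to 1.152) and 1.034 times in Mcm6-SuOn (1.023 to 1.045).

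The zones next in length, on chromosomes V and XIII, followed the same pattern at lower or similar levels. On chromosome V at 456501 to 493000 Mcm6-ctrl had 1.092, 1.034 and 0.945 at the 3 later times, and Mcm6-SuOn 1.006, 0.975 and 0.896. On chromosome XIII at 686501 to 720500 Mcm6-ctrl had 1.054, 1.023 and 0.878, and Mcm6-SuOn 1.007, 0.982 and 0.868. These 3 zones have in common that their 30 min value was below their 15 min value in both genotypes. The zone on chromosome XV at 666001 to 698000 differed in this, with 1.147, 1.197 and 1.0504 in Mcm6-ctrl and 1.047, 1.055 and 0.882 in Mcm6-SuOn. Over all 45 zones, the 30 min value exceeded the 15 min value in 31 in Mcm6-ctrl and 21 in Mcm6-SuOn. The 30 min libraries entered the rule, and the same count was not made over all eligible windows.

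Further long zones lay on chromosomes X, VII and XIII. On chromosome X at 275001 to 306000 the 15 min value was 1.081 in Mcm6-ctrl and 0.999 in Mcm6-SuOn, and on chromosome VII at 711001 to 737500 it was 1.061 and 0.9998. In both of these zones Mcm6-SuOn was thus barely below its chromosome mean. On chromosome VII at 468501 to 491000 the values were 1.083 and 1.039, and on chromosome XIII at 748001 to 765000 they were 1.0498 and 1.0303. These last zones were closer between the genotypes and above 1 in both.

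Among zones of at least 10 kept windows, the 5 with the highest 15 min value in Mcm6-ctrl all lay within 100 kb of a chromosome end. The highest was on chromosome VIII at 44501 to 68500, with 1.320, 1.450 and 1.272 at the 3 later times in Mcm6-ctrl. In Mcm6-SuOn it had 1.062, 1.102 and 0.877. In Mcm6-ctrl this zone held 923 reads per kb before release and 1352 at 15 min, and in Mcm6-SuOn 1457 and 1155. Its read share at 0 min was 1.340 times as high in Mcm6-SuOn as in Mcm6-ctrl (1.317 to 1.364), while at 15 min the ratio was 0.990 (0.974 to 1.007), an interval that holds 1. Over the summed 0 min counts the zone had 1.164 in Mcm6-ctrl and 1.166 in Mcm6-SuOn.

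The zone on chromosome IX at 35501 to 42000 showed the largest ratio of the genotypes before release. Its 15 min value was 1.292 in Mcm6-ctrl and 1.032 in Mcm6-SuOn, and its reads per kb at 0 min were 895 and 1521. Relative to Mcm6-ctrl, the read share in Mcm6-SuOn stood at 1.444 before release (1.396 to 1.493) and 1.037 at 15 min (1.005 to 1.071). The same held to a lesser extent on chromosome XIII at 880001 to 889000, where the 15 min values were 1.273 and 1.0703 and the ratio of read shares was 1.255 at 0 min and 1.048 at 15 min. On chromosome IX at 389501 to 404500 the values were 1.183 and 1.033, with ratios of 1.346 and 1.061. In each of these zones the read shares of the genotypes were further apart before release than at 15 min.

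Zones with the highest 15 min value in Mcm6-SuOn were also high in Mcm6-ctrl. On chromosome XV at 1038501 to 1056000 Mcm6-SuOn had 1.107, 1.104 and 0.945 at the 3 later times, and Mcm6-ctrl 1.253, 1.305 and 1.097. On chromosome XIV at 51001 to 66500 Mcm6-SuOn had 1.106, 1.094 and 1.0006, and Mcm6-ctrl 1.211, 1.301 and 1.192. This was the only zone of at least 10 kept windows in which Mcm6-SuOn was not below its chromosome mean at 40 min. The zone on chromosome XIV at 83001 to 97000 had 1.075 in Mcm6-SuOn and 1.184 in Mcm6-ctrl at 15 min, and that on chromosome VII at 1046501 to 1055500 had 1.075 and 1.188. Read shares at 15 min were 1.111 times those at 0 min in Mcm6-SuOn on chromosome XV (1.091 to 1.131) and 1.116 times on chromosome XIV at 51001 (1.095 to 1.138). Across the 34 zones the 15 min values of the genotypes correlated at r = 0.677, a description over zones that share chromosomes and, within a genotype, the 0 min library.

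Other zones were kept by the rule although Mcm6-ctrl was below its chromosome mean at 15 min. On chromosome II at 470501 to 476000 Mcm6-ctrl had 0.932, 0.971 and 0.886 at the 3 later times, and Mcm6-SuOn had 1.020, 0.985 and 0.959. On chromosome IX at 284501 to 294000 Mcm6-ctrl had 0.916, 0.807 and 0.744, and Mcm6-SuOn 0.995, 0.927 and 0.927. Mcm6-ctrl was below its chromosome mean at all 3 times in both zones. On chromosome X at 464501 to 473000 both genotypes had 0.983 at 15 min, and on chromosome XIII at 82501 to 90000 Mcm6-ctrl had 0.958 and Mcm6-SuOn 0.998. On chromosome VIII at 186501 to 194000 the values were 0.963 and 0.988. Values relative to the chromosome mean and read shares over all 11 chromosomes need not lie on the same side of 1. The read share of Mcm6-ctrl at 15 min was 1.056 times that at 0 min on chromosome IX at 284501 (1.030 to 1.083) and 1.056 times on chromosome VIII at 186501 (1.022 to 1.090).

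Besides the zones on chromosomes X at 275001 and VII at 711001, a further 3 named zones had Mcm6-SuOn below its chromosome mean and Mcm6-ctrl above it, over their own 0 min counts. On chromosome VII at 111001 to 121500 the 15 min value was 1.115 in Mcm6-ctrl and 0.982 in Mcm6-SuOn, at 700001 to 707500 it was 1.061 and 0.983, and on chromosome IX at 354501 to 364500 it was 1.048 and 0.994. The first and last of these had a lower read share in Mcm6-SuOn also at 15 min itself, at 0.938 (0.915 to 0.962) and 0.961 (0.938 to 0.986) of Mcm6-ctrl, while at 700001 the ratio was 0.996 (0.965 to 1.028). Over the summed 0 min counts Mcm6-SuOn had 1.015 at 111001, 1.016 at 700001 and 0.992 on chromosome IX, so that only the last of these was still below 1. In 36 of 45 zones the 15 min value was lower in Mcm6-SuOn and in 9 higher, and on chromosome V at 498001 to 507000 the genotypes had 1.054 and 1.055. Over the summed 0 min counts Mcm6-SuOn was lower in 20 zones and higher in 25.

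The read shares of the genotypes were further apart before release than at 15 min in 40 of 45 zones, and in 5 the reverse held. At 0 min the read share of a zone in Mcm6-SuOn was above that of Mcm6-ctrl, with an interval above 1, in 39 of 45 zones, and in 6 the interval held 1. The ratio ran from 0.993 to 1.444 with a median of 1.0885. At 15 min it ran from 0.913 to 1.099 with a median of 1.012. The interval lay above 1 in 17 zones, below 1 in 6 and held 1 in 22. This approach of the genotypes was not particular to the shared zones. In windows in the top 15% of E in Mcm6-SuOn alone the ratio was 1.120 at 0 min and 1.016 at 15 min. It was 0.937 and 0.990 in the bottom 15% of both, and 0.988 and 0.9999 in windows of no such class. Only windows in the top of Mcm6-ctrl alone moved away from 1, from 0.992 to 0.985.

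**Figure D5:**
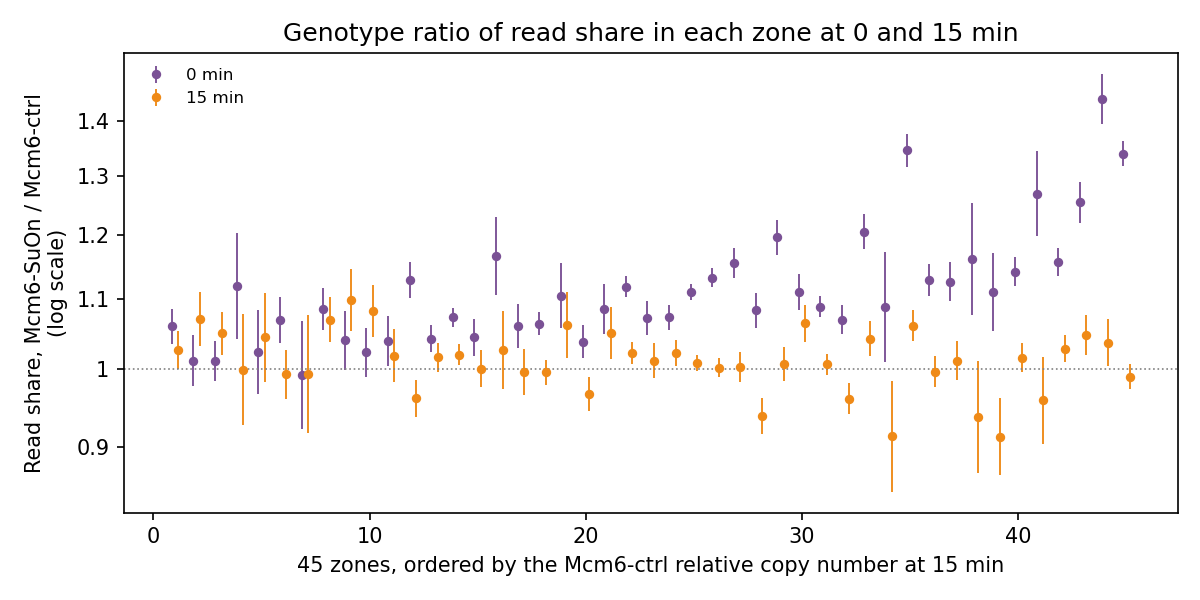
Read share of each of the 45 zones in Mcm6-SuOn over Mcm6-ctrl (log scale) at 0 min (purple) and 15 min (orange), with 95% exact binomial intervals, in the order of the Mcm6-ctrl relative copy number at 15 min. At 0 min the ratios reach 1.444, while at 15 min they lie between 0.913 and 1.099.

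From 0 to 15 min, the interval of the read share ratio lay above 1 in 38 zones in Mcm6-ctrl, below 1 in 1 and held 1 in 6. In Mcm6-SuOn it lay above 1 in 28 zones, below 1 in 1 and held 1 in 16. The ratio ran from 0.965 to 1.486 in Mcm6-ctrl and from 0.939 to 1.116 in Mcm6-SuOn. Mcm6-ctrl thus had a wider span. Its 5 highest ratios belonged to zones within 100 kb of an end, among them the 3 zones with the fewest reads per kb at 0 min. Intervals were counted for the zones only. Over all shared windows the ratio was 1.147 in Mcm6-ctrl and 1.040 in Mcm6-SuOn. In windows in the top 15% of E in Mcm6-SuOn alone it was 1.128 and 1.023. For the top of Mcm6-ctrl alone it was 1.026 and 1.019, and for windows of no such class 0.984 and 0.997. The bottom 15% of both had 0.907 and 0.958. A rise was thus not particular to the shared zones.

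Local peaks at 15 min were found in some zones only. A peak was a window of the deposited smoothed profile that no other within 5 kb exceeded and whose prominence was at least 0.05. In Mcm6-ctrl 23 of 45 zones held such a peak and in Mcm6-SuOn 18 did. Both genotypes had one in 15 zones, Mcm6-ctrl alone in 8, Mcm6-SuOn alone in 3 and neither in 19. Of kept windows, 430 (39.5%) lay within 5 kb of a Mcm6-ctrl peak, against 20.2% of all eligible windows. For Mcm6-SuOn peaks it was 335 (30.8%), against 19.1%. Windows in the top 15% of E in Mcm6-ctrl alone lay near such peaks more often, at 45.5% and 37.1%. Those in the top of Mcm6-SuOn alone did so less often, at 18.6% and 10.3%. The nearest peak was 6.4995 kb from the zone centre in the median zone of Mcm6-ctrl and 8.0005 kb in that of Mcm6-SuOn. Among the zones without a peak in either genotype were the high zones on chromosome XV at 1038501, chromosome IX at 35501, chromosome XIII at 880001 and chromosome VII at 1046501. Over the summed 0 min counts, 18 of 45 zones held a peak in Mcm6-ctrl and 20 in Mcm6-SuOn. Which genotype had more zones with a peak thus depended on the 0 min library used.

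Compared with windows in the top 15% of E in a single genotype, the shared windows had the highest 15 min values. Windows in the top of Mcm6-ctrl alone (1215) had a median of 0.997 in Mcm6-ctrl and 1.008 in Mcm6-SuOn at 15 min. Windows in the top of Mcm6-SuOn alone (1218) had 1.07 and 1.010, nearer to the shared windows in Mcm6-ctrl. As read shares over the summed 0 min counts, the shared windows had 1.079 in Mcm6-ctrl and 1.092 in Mcm6-SuOn, against 1.0304 and 1.0151 for the windows of Mcm6-ctrl alone and 1.059 and 1.076 for those of Mcm6-SuOn. Intervals of these ratios did not overlap between the classes within a genotype. Windows in the bottom 15% of E in both genotypes (1224) had medians of 0.9 and 0.954 at 15 min, and none of them was past the fold in either genotype.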

How the data were processed

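Genomic DNA was purified by CsCl ultracentrifugation and sequenced, per the labels' protocols, and the submitters' processing notes name sacCer2 as build. For aligner, read filters and smoother, the sources used here give nothing. The authors deposited raw read counts for 0 min in windows of 1000 bp every 500 bp. For later times they deposited a ratio of counts, later over 0 min within a genotype, in plain, chromosome-scaled and smoothed form, per the file headers and the values. Later counts were recovered as ratio times 0 min count, to within 0.947 reads by rounding in kept windows. Windows with few reads, whose ratio is listed at 0, were left out, as were 220 windows at which the rolling median had no value. Read shares use every other window, so that each read counts once, and rest on 9124374 to 15441836 eligible reads per library. Intervals cover counting error only. PCR copies of a molecule cannot be told from separate molecules, and where reads include such copies the intervals are too narrow.

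Summed 0 min counts were divided in the same way, scaled per chromosome and smoothed by a local quadratic fit (tricube weights, half-width 12.5 kb), which matched the deposited smoothing at r of at least 0.998. With 1 library per group no test was run. Zones named were, among those of at least 10 kept windows, the 10 longest, the 5 highest and 5 lowest at 15 min in each genotype and the 5 with the largest difference each way. The members and definitions were chosen with earlier results of these data known. Scripts were tested on simulated data. Python 3.11.15, numpy 2.4.6, pandas 2.3.3 and scipy 1.17.1 were used.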

Additional observations from a re-analysis of the deposited data

Results flagged for a closer look

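In 8 of 45 zones the ratio of the 15 min to the 0 min read share lay above 1 in one genotype and below 1 in the other, and with 1 library each this difference was not tested. It was above 1 in the control and below 1 in Mcm6-SuOn in 6 of them. In 5 of these 6 the 95% counting interval of Mcm6-SuOn held 1. These were chromosome VII at 111001 (1.143 in the control and 0.989 in Mcm6-SuOn, interval 0.966 to 1.014), chromosome VII at 700001 (1.062 and 0.9976, 0.968 to 1.028) and chromosome VIII at 186501 (1.056 and 0.980, 0.949 to 1.012). The others were chromosome X at 275001 (1.088 and 0.9935, 0.9795 to 1.008) and chromosome IX at 271501, with 2 windows (1.112 and 0.993, 0.923 to 1.067).

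In a zone of 3 windows on chromosome VII at 513001 both intervals lay off 1, at 1.243 in the control (1.170 to 1.320) and 0.939 in Mcm6-SuOn (0.886 to 0.994). Over the summed 0 min counts both genotypes were above 1 there, at 1.0795 and 1.041 relative to the chromosome mean. These short zones fall outside the naming rule and are given because of these values.

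The opposite order was found in 2 zones. On chromosome II at 470501 the control had 0.9795 (0.945 to 1.015) and Mcm6-SuOn 1.037 (1.0005 to 1.074). On chromosome XIII at 82501 the control had 0.969 (0.941 to 0.9965) and Mcm6-SuOn 1.0054 (0.978 to 1.034). In each, 1 of the 2 intervals held 1.

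Over all shared windows, the 40 min share was 1.038 times the 0 min share in the control and 0.9004 times in Mcm6-SuOn. The 40 min libraries entered the choice of these windows, and this difference was not tested either.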

How the results depend on the processing

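The difference at 15 min between shared and other windows stayed above 0 in both genotypes under every alternative run, and its size depended most on the 0 min library. Values are given for the control, Mcm6-SuOn and Mcm6-SuOn minus control. Over the summed 0 min counts they were 0.0803, 0.0864 and 0.00602, and over the 0 min count of the other genotype 0.0294, 0.141 and 0.111, so that the order of the genotypes was reversed. Within 5 equal-sized classes of the 0 min count, an alternative chosen after seeing the data, they were 0.0479, 0.0228 and -0.025. Classes with fewer than 20 kept windows were left out here. This removed the classes of highest count in the control and none in Mcm6-SuOn, so that -0.025 compares unlike sets of classes. With the top 10% of E, 658 windows were kept and the values were 0.1495, 0.042 and -0.1075, and with the top 20% 0.125, 0.039 and -0.086. A rolling median of 11 windows gave 0.141, 0.041 and -0.1, and one of 41 windows 0.128, 0.037 and -0.091. Leaving out 75 kb at each end gave 0.121, 0.0375 and -0.0835, all 16 chromosomes 0.152, 0.04 and -0.112, and a 0 min count of at least 1000 gave 0.123, 0.0415 and -0.0815. Smoothed ratios gave 0.137, 0.0366 and -0.1001, ratios with no factor per chromosome 0.149, 0.0456 and -0.103, and E from scaled ratios, also chosen after seeing the data, 0.14, 0.045 and -0.095. In Mcm6-SuOn 833 kept windows (76.6%, against 40.8% of all eligible windows) were past a fold of 1. Past 1.1 were 42 (3.86%, against 0.573%), and 591 (54.3%, against 14.8%) were past 5% above the mean over the summed counts. The same settings gave 994, 546 and 630 kept windows in the control, with shares given above. A peak of prominence 0.1 lay in 18 zones in the control and 8 in Mcm6-SuOn. Over the summed counts 18 and 20 zones held a peak. The cause was not tested. No paired analysis was possible because each group has 1 library, and for the same reason no replicate could be left out. Depth limits single windows to a counting SD near 0.04.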
